A study of Mus musculus with 16 samples.

Results

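The p53 target genes considered here are 10 genes that the tumour suppressor p53 is known to switch on: Cdkn1a, Mdm2, Trp53inp1, Phlda3, Perp, Sfn, Plk3, Ccng1, Gdf15 and Btg2. They were read from mouse kidney arrays as rows that the array annotation pairs with exactly 1 gene symbol, with the row of the highest mean standing for a gene. Of the 10 genes, 8 had such a row among the 19938 genes tested. The row of Cdkn1a, which encodes the cell cycle inhibitor p21, carries a second symbol as well, and no row was paired with Gdf15, a secreted stress cytokine, so no level is given for either gene.

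The arrays hold halved kidneys of 16 mice, of both sexes and 24 to 31 g body weight, all from a transgenic line in which doxycycline deletes Vhl in renal tubule cells through a Pax8-rtTA driver. Mice of the VHL-KO/AKI group (n = 5) had doxycycline under the skin 4 days before death (0.1 mg for each 10 g of weight) and 50% glycerol in a hind limb muscle (0.05 ml for each 10 g of weight). AKI mice (n = 5) received the glycerol without doxycycline, VHL-KO mice (n = 3) the doxycycline without glycerol, and control mice (n = 3) neither. Glycerol destroys muscle (rhabdomyolysis) and so causes acute kidney injury (AKI), and both glycerol groups also went without drinking water, starting 20 h ahead of the glycerol and ending 24 h later. Mice without doxycycline are labelled wild type in genotype although they carry the same transgenes, and no group had doxycycline without the deletion or thirst without glycerol. No age is given, and the replicates are labelled as biological.

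p53 is a transcription factor that is kept scarce in healthy cells because Mdm2, itself a p53 target, marks it for destruction. Damage to DNA and other stress release it, and its targets then halt the cell cycle, start repair or start cell death. In the injured kidney, p53 activity is best known in proximal tubule cells. Several of the 8 measured genes also answer to other signals: Btg2 and Plk3 are induced quickly by growth factors and stress, and Sfn and Perp belong to epithelial differentiation.

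Values are log2 probe set levels as deposited, so a difference of 1 is a doubling, and levels of different genes cannot be set against each other. Array medians lay between 5.92 and 6.03, and the number of mice limits the precision of every value. Vhl was lower in all 8 deleted kidneys than in any other, at 6.50 ± 0.12 in VHL-KO/AKI against 7.16 ± 0.12 in AKI, and at 6.65 ± 0.04 in VHL-KO against 7.06 ± 0.04 in controls (SD). The deletion difference in Vhl passed in injured kidneys (adjusted p = 9.98e-05) and missed the threshold in uninjured ones (adjusted p = 0.0565). Kidney markers were present throughout, with the mean of 8 proximal tubule genes between 10.2 and 12.2. Array AKI 4 stood apart, with a mean correlation of 0.973 with its group against 0.988 to 0.989 for the other AKI arrays, a mean of 7 tubular injury genes 1.79 below theirs and a proximal tubule mean 1.25 above theirs. Xist, the transcript of the inactive X chromosome, lay between 4.16 and 5.08 in injured kidneys and between 10.2 and 11.5 in uninjured ones, and Control 3 alone carried both Xist (10.2) and Y-linked transcripts (mean 7.43). Injury and sex-linked signal therefore cannot be told apart, apart from what Control 3 offers, in any comparison of injured with uninjured kidneys.

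Promoter sequences, from RefSeq on build GRCm38.p6, were at hand for 8 of the 10 genes and are shown for Ccng1, which did not pass any test, and for Mdm2 and Plk3, which were higher in AKI than in controls. Each window runs from 250 bases before to 50 after a transcript start, and the start is position 1. The capitals in Ccng1 mark the closest match to a full p53 site, which is 2 p53 half-sites at most 13 bases apart. That match begins at -195, has no gap and departs from the motif at 1 base, which 0.627% of all 32851 promoters match or better. In Mdm2 the capitals mark a single complete half-site at -186, a feature of 8.36% of promoters. Its nearest pair, not marked, begins at -51 and has 4 departures, a quality reached by 40.4% of promoters. In Plk3 no half-site was complete, and the capitals mark the nearest pair, with 3 departures, a quality reached by 15.6% of promoters.
Ccng1, chr11:40755237-40755536, minus strand: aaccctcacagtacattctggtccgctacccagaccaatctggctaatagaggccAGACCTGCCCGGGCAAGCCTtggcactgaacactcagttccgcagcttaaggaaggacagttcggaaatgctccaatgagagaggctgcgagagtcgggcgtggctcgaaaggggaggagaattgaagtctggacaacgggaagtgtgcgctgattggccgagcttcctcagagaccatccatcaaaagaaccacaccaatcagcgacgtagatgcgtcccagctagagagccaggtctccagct
Mdm2, chr10:117710709-117711008, minus strand: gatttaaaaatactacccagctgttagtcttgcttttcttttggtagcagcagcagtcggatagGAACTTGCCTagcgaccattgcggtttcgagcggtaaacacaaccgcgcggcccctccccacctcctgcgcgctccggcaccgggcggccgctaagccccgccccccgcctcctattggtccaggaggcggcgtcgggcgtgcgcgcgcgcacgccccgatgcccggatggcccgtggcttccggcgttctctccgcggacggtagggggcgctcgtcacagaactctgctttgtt
Plk3, chr4:117133914-117134213, minus strand: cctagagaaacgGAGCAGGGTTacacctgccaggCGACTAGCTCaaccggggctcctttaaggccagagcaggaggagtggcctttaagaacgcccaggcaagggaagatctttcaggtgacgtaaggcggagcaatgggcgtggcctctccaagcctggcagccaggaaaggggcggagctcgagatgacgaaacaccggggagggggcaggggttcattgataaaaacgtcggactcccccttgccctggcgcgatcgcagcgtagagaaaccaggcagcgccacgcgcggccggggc
Both strands were read at once, since the half-site reads the same on either. Of the 8 genes with a promoter, Cdkn1a was the only one with a full pair without departures, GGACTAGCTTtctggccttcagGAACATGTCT, found in 0.0731% of promoters (chr17:29090906-29090937, plus strand, half-sites in capitals). Cdkn1a had a further window, at chr17:29093519-29093818, without a complete half-site and with 5 departures in its nearest pair. No half-site was complete in the windows of Phlda3, Sfn, Btg2 and Gdf15, which says only that these letters are not there.

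**Figure D1:**
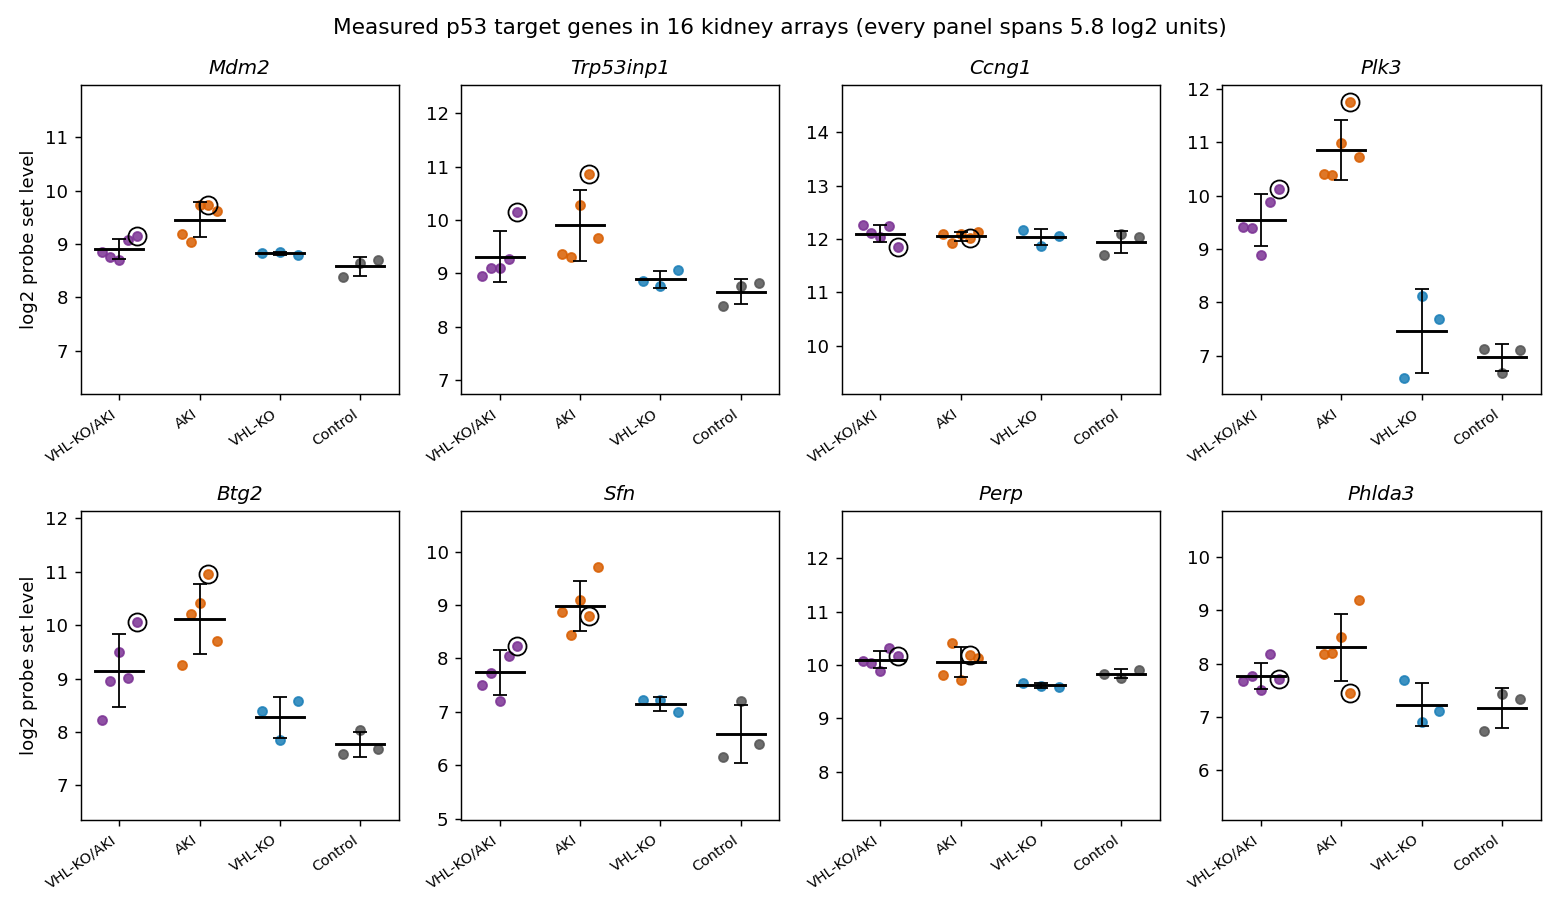
Log2 probe set level (vertical axis) of the 8 measured p53 target genes in each array, by group (horizontal axis). Points are arrays, wide bars are group means, whiskers are 1 SD, and black rings mark VHL-KO/AKI 5 and AKI 4. Every panel spans the same number of log2 units, so the flat row of Ccng1, with group means from 11.9 to 12.1, can be set beside the steps of Plk3, with group means from 6.97 to 10.9.

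Most of the measured p53 targets were higher after glycerol injury in kidneys without the deletion. In AKI against control, 6 of 8 were called higher (Mdm2, Trp53inp1, Plk3, Btg2, Sfn and Phlda3), none was called lower, and Ccng1 and Perp did not pass the test. Over all genes tested, 13.2% were called higher and 14.9% lower in this comparison. The median log2 difference was 1.19 for the 8 genes and 0.02 for all genes. The comparisons below share groups of arrays, and each is given with its own values. Called means an adjusted p under 0.05 in the limma fit over all genes.

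Mdm2, which encodes the ubiquitin ligase that holds p53 down, had levels of 9.18, 9.04, 9.72, 9.72 and 9.62 in AKI 1 to 5, against 8.38, 8.65 and 8.70 in controls 1 to 3. The groups did not overlap. Mdm2 rose by 0.88 (SE 0.156, adjusted p = 0.000772), a 1.84-fold change. Trp53inp1, a p53 target whose protein feeds back on p53 and takes part in cell death and autophagy, stood at 9.37, 9.31, 10.28, 10.87 and 9.66 in AKI and at 8.39, 8.76 and 8.81 in controls. Every AKI array was above every control, but AKI 3 and AKI 4 lay far above the other 3. Its rise was 1.24 (SE 0.323, adjusted p = 0.00941). Without Control 1, the lowest control for Trp53inp1, the difference was 1.11 and the adjusted p 0.0511.

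Plk3, Btg2 and Sfn had the largest differences of the 8 genes. Plk3, a polo-like kinase of the stress response, was at 10.40, 10.38, 10.98, 11.76 and 10.73 in AKI against 7.12, 6.68 and 7.10 in controls. This was the largest difference among the 8 genes, 3.88 (SE 0.361, adjusted p = 7.99e-06), or 14.8-fold. The lowest AKI array stood more than 3 log2 units above the highest control. Btg2, an antiproliferative cofactor of mRNA decay, had 9.25, 10.20, 10.42, 10.96 and 9.71 in AKI against 7.58, 8.03 and 7.69 in controls. It rose by 2.35 (SE 0.381, adjusted p = 0.000411), with a spread in AKI of 0.66 (SD) against 0.24 in controls. Sfn, or 14-3-3 sigma, which keeps mitotic kinase complexes in the cytoplasm, reached 8.88, 8.44, 9.10, 8.79 and 9.71 in AKI against 6.15, 7.20 and 6.40 in controls. The groups were separate although Control 2 stood well above the other controls, and the rise was 2.40 (SE 0.286, adjusted p = 4.46e-05). A second array row paired with Sfn, at lower levels, rose by 2.38 (SE 0.262, adjusted p = 5.13e-05) in a fit over every row.

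Ccng1, or cyclin G1, which recruits a phosphatase to Mdm2, did not pass the test. It had 12.09, 11.93, 12.09, 12.01 and 12.13 in AKI against 11.71, 12.10 and 12.03 in controls. The difference of 0.11 (95% interval -0.12 to 0.33, adjusted p = 0.503) was within the spread of the controls (SD 0.208). Ccng1 passed in none of the 5 comparisons.

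The remaining targets act on cell survival and adhesion. Phlda3, which blocks the survival kinase Akt at the membrane, stood at 8.18, 8.20, 8.50, 7.45 and 9.20 in AKI against 6.73, 7.43 and 7.35 in controls. AKI 4 was the lowest AKI array here and lay just above the highest control. Phlda3 rose by 1.14 (SE 0.300, adjusted p = 0.0103), but without Control 1 the difference was 0.92 and the adjusted p 0.0686. Perp, a membrane protein of desmosomes and of p53-dependent cell death, had 9.82, 10.41, 9.72, 10.20 and 10.12 in AKI against 9.84, 9.75 and 9.91 in controls. The groups overlapped, and the difference was 0.22 (95% interval -0.06 to 0.50, adjusted p = 0.248).

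The count of 6 also held with AKI 4 and Control 3 both left out, and it was 4 without Control 1. When Xist minus the Y-linked mean entered the fit, a term that rests on Control 3, no member passed (adjusted p = 1 for all 6). The differences in that fit were 0.65 for Mdm2, 1.67 for Trp53inp1, 4.21 for Plk3, 3.91 for Btg2, 2.91 for Sfn and -0.15 for Phlda3.

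**Figure D2:**
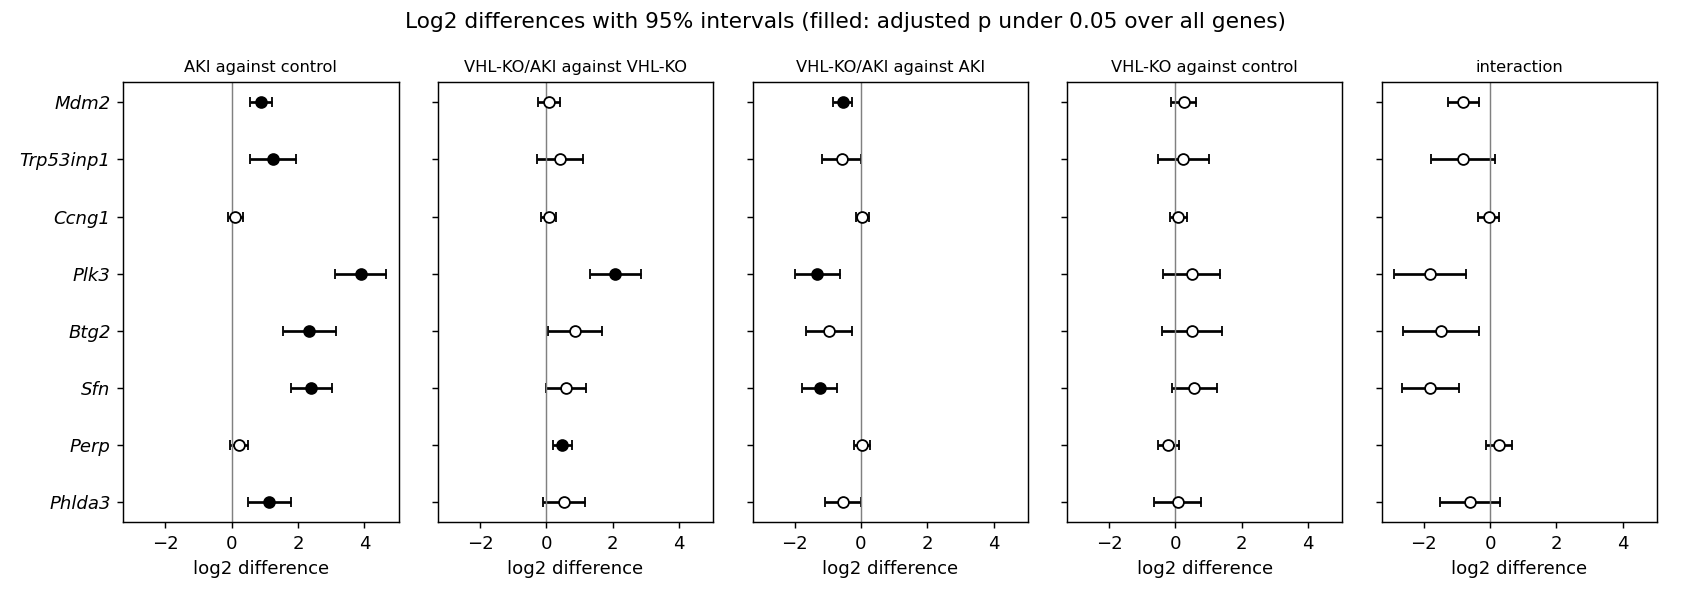
Log2 difference (horizontal axis) with 95% interval for the 8 genes in the 5 comparisons. Filled points passed the test over all genes. The filled points lie right of 0 for AKI against control (6) and, among kidneys with the deletion, for injury (2), and left of 0 for VHL-KO/AKI against AKI (3).

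In injured kidneys, part of the same set was lower with deletion of Vhl than without it. In VHL-KO/AKI against AKI, 3 of 8 genes were called lower (Plk3, Sfn and Mdm2) and none higher, while 1.4% of all genes tested were called lower and 2.48% higher. Xist was low in both groups, at 4.30 to 4.49 in VHL-KO/AKI and 4.16 to 5.08 in AKI. The 8 genes had a median of -0.57, against -0.01 for all genes.

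Plk3 had 9.42, 9.40, 8.89, 9.89 and 10.13 in VHL-KO/AKI 1 to 5, all below the lowest AKI array at 10.38. It fell by 1.31 (SE 0.312, adjusted p = 0.0334), which left it at 0.404 of the AKI level. Sfn, at 7.49, 7.73, 7.19, 8.05 and 8.24 in VHL-KO/AKI, was likewise below every AKI array, the lowest of which was at 8.44. Sfn fell by 1.24 (SE 0.247, adjusted p = 0.0154), and its second row by 1.37 (adjusted p = 0.0093). Mdm2 had 8.85, 8.75, 8.70, 9.07 and 9.14 in VHL-KO/AKI, of which the last 2 lay above AKI 2 (9.04) and all lay below the other AKI arrays. It fell by 0.55 (SE 0.135, adjusted p = 0.0363).

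The other genes missed the threshold. Btg2 had 8.23, 8.96, 9.49, 9.01 and 10.06 in VHL-KO/AKI, a range that overlapped AKI, with a difference of -0.96 (95% interval -1.66 to -0.26, adjusted p = 0.124). Trp53inp1 had 8.96, 9.09, 9.10, 9.26 and 10.15 in VHL-KO/AKI, where the last array reached the AKI range, as the others did not. Its difference was -0.58 (95% interval -1.18 to 0.01, adjusted p = 0.281). Phlda3, at 7.69, 7.77, 7.50, 8.17 and 7.71 in VHL-KO/AKI, overlapped AKI only through AKI 4 and differed by -0.54 (95% interval -1.09 to 0.02, adjusted p = 0.284). Perp, at 10.1 ± 0.2 in VHL-KO/AKI and 10.1 ± 0.3 in AKI, differed by 0.05 (95% interval -0.20 to 0.29). For Ccng1 the difference was 0.05 (95% interval -0.15 to 0.24).

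Of these 3 calls, those of Plk3 and Mdm2 sat near the threshold. The count was 1, with Sfn alone, without AKI 3, AKI 5, VHL-KO/AKI 2 or VHL-KO/AKI 3. It was 0 without VHL-KO/AKI 1, where Sfn had an adjusted p of 0.051. The count was 4 with AKI 4 and Control 3 both left out, when Phlda3 passed as well (-0.75, adjusted p = 0.0497). It was also 4 without AKI 4 alone, through Phlda3 (adjusted p = 0.0407), and without VHL-KO/AKI 5, through Btg2 (-1.19, adjusted p = 0.0319).

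After injury in kidneys with the deletion, 2 of 8 genes passed the threshold. In VHL-KO/AKI against VHL-KO, Plk3 and Perp were called higher and none of the 8 lower, with 4.66% of all genes called higher and 8.91% lower. Plk3 had the levels given above in VHL-KO/AKI and 6.59, 8.12 and 7.68 in VHL-KO 1 to 3, a rise of 2.08 (SE 0.361, adjusted p = 0.00172) or 4.24-fold. The groups did not overlap, although VHL-KO 1 stood far below the other VHL-KO arrays. Perp had 10.07, 10.04, 9.88, 10.33 and 10.17 in VHL-KO/AKI against 9.66, 9.61 and 9.58 in VHL-KO. The groups did not overlap, and Perp rose by 0.48 (SE 0.132, adjusted p = 0.0247). That call was lost without any 1 of the VHL-KO arrays, VHL-KO/AKI 4 or VHL-KO/AKI 5 (adjusted p from 0.0504 to 0.0859). With that sex-linked term in the fit neither gene passed (adjusted p = 1 for both), at 2.47 for Plk3 and 0.49 for Perp.

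Mdm2 did not pass, at 8.90 ± 0.19 in VHL-KO/AKI (SD, n = 5) and 8.83 ± 0.03 in VHL-KO (n = 3), with a difference of 0.08 (95% interval -0.26 to 0.41). Btg2 differed by 0.88 (95% interval 0.06 to 1.69, adjusted p = 0.15), Sfn by 0.60 (adjusted p = 0.194), Phlda3 by 0.53 (adjusted p = 0.278) and Trp53inp1 by 0.42 (adjusted p = 0.446). The rows of Sfn disagreed here, since the second rose by 1.14 (SE 0.262, adjusted p = 0.0149), at 6.59 ± 0.58 in VHL-KO/AKI against 5.46 ± 0.09 in VHL-KO. Ccng1 differed by 0.07 (95% interval -0.16 to 0.29).

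In uninjured kidneys, no measured p53 target passed the threshold with deletion of Vhl. In VHL-KO against control, 0 of 8 were called by limma (0 at an unadjusted p under 0.05), with 0.476% of all genes called higher and 0.0502% lower. Differences ran from -0.22 for Perp to 0.56 for Sfn, with a median of 0.24. Sfn had 7.21, 7.23 and 6.99 in VHL-KO against 6.15, 7.20 and 6.40 in controls, which overlap through Control 2. Its second row had the opposite sign, at -0.13 (95% interval -0.76 to 0.50, adjusted p = 0.985 in the limma fit over every row). Mdm2 was higher in all 3 VHL-KO arrays (8.84, 8.85 and 8.79) than in any control, by 0.25 (95% interval -0.12 to 0.62, adjusted p = 0.795). Perp was lower in all 3 VHL-KO arrays than in any control, with a difference of -0.22 (95% interval -0.53 to 0.10, adjusted p = 0.78).

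Whether deletion acted differently on injured and uninjured kidneys was tested as the interaction, the difference VHL-KO/AKI minus AKI less the difference VHL-KO minus control. None of the 8 genes passed by limma, and 4 had an unadjusted p under 0.05, against 12% of all genes. Over all genes, 0% were called higher and 0.01% lower. The 4 were Sfn at -1.80 (SE 0.404, adjusted p = 0.116), Plk3 at -1.80 (SE 0.510, adjusted p = 0.182), Mdm2 at -0.80 (SE 0.221, adjusted p = 0.172) and Btg2 at -1.47 (SE 0.538, adjusted p = 0.292). The second row of Sfn had -1.24 (SE 0.370, adjusted p = 0.297) in the limma fit over every row. Perp, at 0.26, was the only gene with a positive value. With array weights, Sfn, Plk3 and Mdm2 passed (adjusted p from 0.024 to 0.0476). Sfn alone passed without AKI 4 (adjusted p = 0.0369) or without VHL-KO/AKI 5 (adjusted p = 0.0356). The shares of all genes above belong to the fit without these changes, and no share is given here for the changed fits.

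Within the injured groups the genes did not vary as 1 block. In AKI 4, the array with the low injury markers, Trp53inp1, Plk3, Btg2 and Mdm2 had their highest AKI level, by 1.22, 1.14, 1.07 and 0.33 above the mean of the other AKI arrays. Phlda3 had its lowest there, 1.07 below the others, and Sfn was 0.24 below. VHL-KO/AKI 5 was the highest of its group for the same 4 genes and for Sfn, with Btg2 1.14, Trp53inp1 1.05, Plk3 0.73 and Sfn 0.62 above the other arrays of the group. Its tubular injury mean was 0.64 above and its proximal tubule mean 0.55 below the others, the opposite of AKI 4. Immediate early genes, a list of 12 transcription factors and regulators that respond to stress within minutes, stood highest in both arrays, by 0.61 in AKI 4 and 0.59 in VHL-KO/AKI 5. The mean of 7 neutrophil genes was highest in both as well, by 0.49 in AKI 4 and 0.55 in VHL-KO/AKI 5. The part of these in the levels of the 4 genes was not tested.

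**Figure D3:**
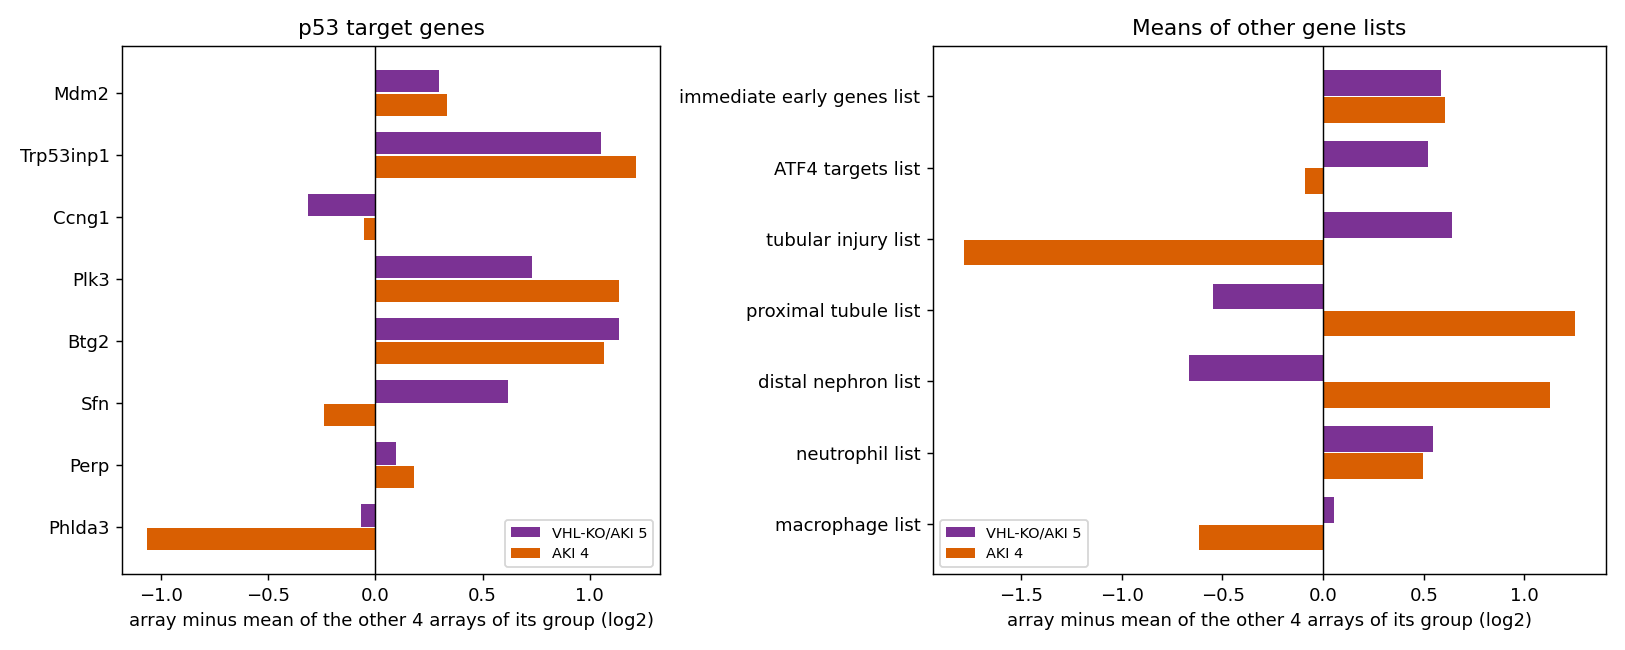
Level in VHL-KO/AKI 5 and in AKI 4 minus the mean of the other 4 arrays of the same group (horizontal axis, log2 units), for the 8 p53 target genes (left) and for the means of 7 other gene lists (right). Trp53inp1, Plk3, Btg2 and Mdm2 are above 0 in both arrays, whereas the tubular injury list is 0.64 above in VHL-KO/AKI 5 and 1.79 below in AKI 4.

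Further p53 targets were read from a pair of lists. Of 9 measured cell death targets, 5 rose and 1 fell in AKI against control, where 13.2% of all genes were called higher and 14.9% lower. The death receptor gene Tnfrsf10b rose by 1.66 (adjusted p = 0.000206), the receptor Eda2r by 1.26 (adjusted p = 0.00533), the apoptosome scaffold Apaf1 by 0.73 and the nuclease Aen by 0.72. Pmaip1, which encodes the BH3-only protein Noxa, rose by 0.63 in AKI and was the single member of that list called in VHL-KO/AKI against VHL-KO (0.43, adjusted p = 0.0468). The member that fell was Ei24, by 0.50. Bbc3, or Puma, differed by 0.11 and Fas by 0.25, neither past the threshold. None of the 9 was called by limma in VHL-KO/AKI against AKI (4 at an unadjusted p under 0.05, against 18.7% of all genes).

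Of 11 measured targets for arrest and DNA repair, 3 rose in AKI against control and 8 did not pass. Over all genes 13.2% were called higher there. Gadd45a, a stress sensor that slows the cell cycle, rose by 2.07 (adjusted p = 0.00106), the mTORC1 inhibitor gene Ddit4 by 1.96 (adjusted p = 0.00115) and the RNA-binding protein gene Zmat3 by 0.84 (adjusted p = 0.0102). The repair genes Ddb2 (-0.23), Xpc (-0.25), Polk (0.01) and Rrm2b (0.03) did not pass. Gadd45a was also the single member called in VHL-KO/AKI against AKI, where it fell by 1.59 (SE 0.332, adjusted p = 0.0198). Over all genes 1.4% were called lower in that comparison. List medians in AKI against control were 0.63 for cell death and 0.03 for arrest and repair.

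Of 15 measured regulators of p53, 1 rose and 2 fell in AKI against control, where 13.2% of all genes were called higher and 14.9% lower. Usp7, a deubiquitinase of Mdm2 and p53, rose by 0.39, and the kinase genes Atm and Hipk2 fell by 0.82 and 0.35. No row was used for the p53 gene itself, Trp53. Mdm4, the partner of Mdm2, differed by -0.02 in AKI against control and was lower in VHL-KO/AKI than in VHL-KO (-0.44, adjusted p = 0.00569), where Hipk2 was lower as well (-0.31, adjusted p = 0.00229). The median of the list was 0.04 in AKI against control.

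Of 9 measured cell cycle genes that p53 lowers through p21, 1 rose in AKI against control (Top2a, by 0.66) and 8 did not pass. Over all genes 13.2% were called higher in that comparison. Top2a fell in VHL-KO/AKI against AKI by 0.60 and the other 8 did not pass, with 1.4% of all genes called lower. In VHL-KO/AKI against VHL-KO 4 of 9 fell: Ccna2 by 1.36, Mki67 by 1.15, Ccnb2 by 0.99 and Cdk1 by 0.64. Over all genes 8.91% were called lower there. The same 4 genes had higher means in VHL-KO than in controls, Ccna2 by 1.05, Mki67 by 0.71, Ccnb2 by 0.64 and Cdk1 by 0.68. None of the 9 was called by limma in VHL-KO against control (4 at an unadjusted p under 0.05, against 8.35% of all genes). The list mean spanned 5.06 to 5.26 in VHL-KO/AKI, 5.30 to 5.49 in AKI, 5.41 to 5.88 in VHL-KO and 5.26 to 5.36 in controls.

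Genes of other stress pathways moved in the same comparisons. Of all genes, 13.2% were called higher in AKI against control and 1.4% lower in VHL-KO/AKI against AKI. All 12 immediate early genes rose in AKI against control, among them Atf3 by 3.93, Fosl1 by 3.46, Myc by 3.19 and Egr1 by 2.96. Of the 12, 5 fell in VHL-KO/AKI against AKI, among them Atf3 by 1.50, Egr1 by 1.30, Fosl1 by 1.08 and Klf6 by 0.94. Their list mean spanned 7.12 to 7.92 in VHL-KO/AKI and 7.90 to 8.80 in AKI, and 6.31 to 6.41 in VHL-KO and 6.08 to 6.21 in controls. The list of 10 ATF4 targets includes Atf4 itself, the gene of the factor of the integrated stress response. It shares Sesn2 with the list of targets for arrest and DNA repair. Of the 10, 7 rose in AKI against control, among them Slc7a11 by 4.21, Chac1 by 2.30, Asns by 1.91 and Atf4 itself by 1.62. Of the 10, 2 fell in VHL-KO/AKI against AKI, Atf4 itself by 0.63 and the target Slc3a2 by 0.45. The part of these pathways in the p53 targets was not tested.

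**Figure D4:**
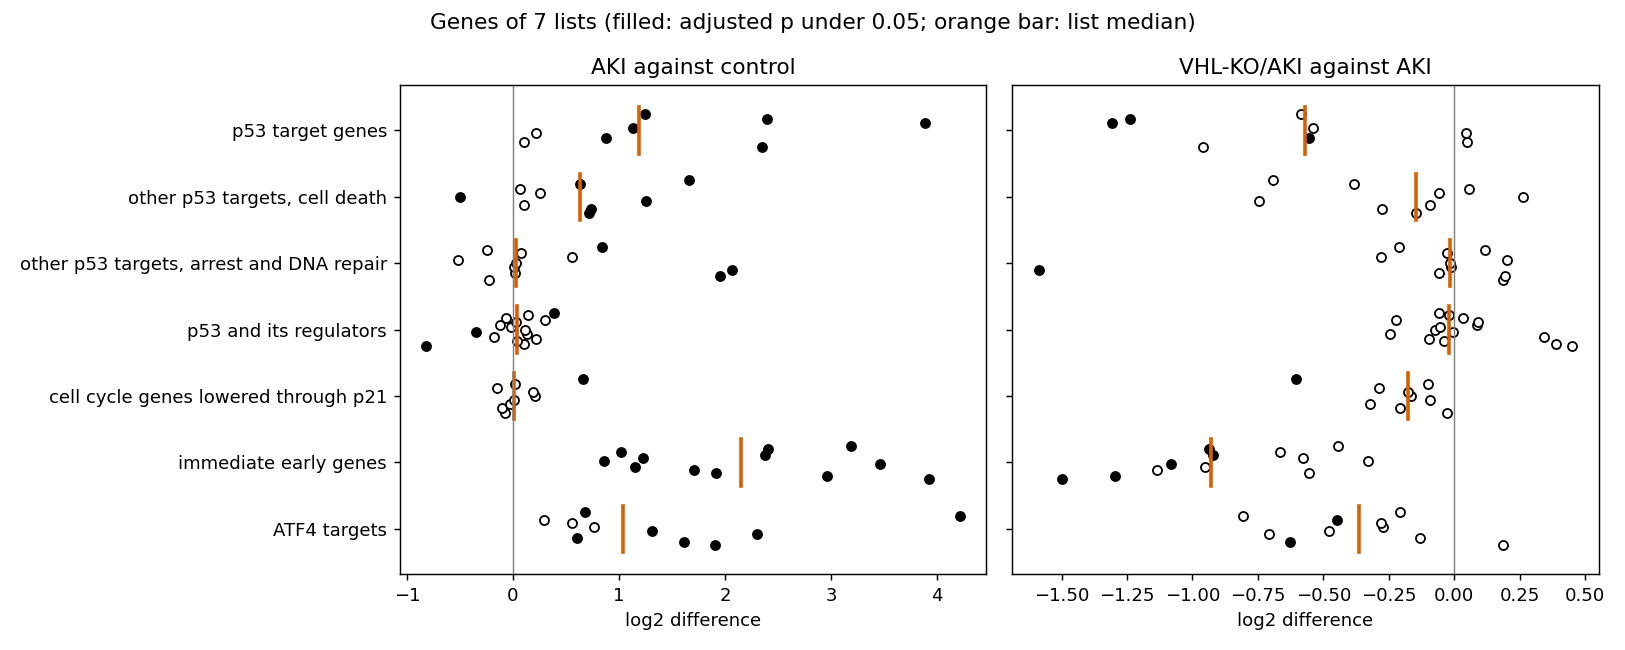
Log2 difference (horizontal axis) of each measured gene of 7 lists (rows) in AKI against control (left) and in VHL-KO/AKI against AKI (right). Filled points passed the test over all genes and orange bars are list medians. In AKI against control all immediate early genes are filled and right of 0, with a median of 2.15, while the regulators of p53 centre on 0.04.

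Markers of cell types moved with injury as well, and in whole tissue fewer cells of a type and less RNA per cell cannot be told apart. Over all genes tested, 13.2% were called higher and 14.9% lower in AKI against control. In VHL-KO/AKI against AKI 2.48% were called higher and 1.4% lower. Of 8 proximal tubule genes, 7 fell in AKI against control (median -1.52), and of 8 distal nephron genes 5 fell (median -1.08). By limma, 0 of the 8 proximal genes (4 at an unadjusted p under 0.05) and 1 of the 8 distal genes were called in VHL-KO/AKI against AKI, the distal gene higher, with list medians of 0.42 and 0.38. Neutrophil genes rose in 6 of 7 cases in AKI against control, and in VHL-KO/AKI against AKI 2 of 7 fell, with the list mean at 4.70 to 5.47 in VHL-KO/AKI and 5.30 to 6.11 in AKI. Of 7 macrophage genes, 2 rose in AKI against control, Cd14 by 2.52 and Cd68 by 1.93, and Csf1r fell by 1.03. Of 9 genes of urothelium and stratified epithelium, tissues that express Sfn and Perp, 2 rose in AKI against control, Krt5 by 0.83 and Krt14 by 0.30. Krt14 had low levels, at 4.93 in AKI and 4.62 in controls. The list median was 0.02, with 5 of 9 differences above 0, and Upk1a differed by -0.46 (adjusted p = 0.344). In that last list none of 9 was called by limma in VHL-KO/AKI against AKI (0 at an unadjusted p under 0.05), and its mean spanned 5.33 to 5.82 in VHL-KO/AKI and 5.45 to 5.92 in AKI. Of 7 endothelial genes 3 fell in AKI against control, and of 6 lymphocyte genes 1 fell. The part of cell composition in the p53 targets was not tested.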

How the data were processed

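RNA of 16 mouse kidneys was measured on single-colour Affymetrix whole-transcript arrays. The authors deposited log2 values, made with RMA in Partek 6.4 per the submitters' processing notes. The array build is not given in the sources used here. Of 35556 rows, 21789 carry 1 gene symbol, 1621 several and 12146 none, and the 19938 genes with a symbol of their own were tested at their row of highest mean. One mean per group was fitted to all 16 arrays with limma 3.58.1 in R 4.3.3, two-sided, with Benjamini-Hochberg adjustment over all genes. The procedure was tested on simulated data. The members and the 17 gene lists were chosen with earlier results of these data known. Named were all members, Vhl, Mdm4 and, per list and comparison, up to 4 called genes of largest change, with cell type and HIF lists given mainly as counts. Ei24, Bbc3, Fas, Ddb2, Xpc, Polk and Rrm2b, and the Plk3 promoter, were added after their values were seen. Alternatives covered array scaling, row choice, dim genes, variance model, array weights, the groups fitted, a replicate block, a sex-linked covariate and leaving out arrays.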

Additional observations from a re-analysis of the deposited data

Results flagged for a closer look

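Trp53inp1 in VHL-KO/AKI 5, at 10.155, stood far from the other VHL-KO/AKI arrays, the nearest of which was at 9.26. The gap took up 0.745 of the range of the group, above Dixon's 95% critical value of 0.71 for 5 samples. It was the only such value in 16 tests of a gene in a group of 5. Chance alone gives about 1 such value in every 20 tests, close to the 1 in 16 seen here. Btg2, Plk3, Sfn and Mdm2 were highest in the same array without passing this limit.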

How the results depend on the processing

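Each array of the groups in a comparison was left out in turn, which for the interaction meant all 16 arrays. Counts of called p53 target genes then ranged from 4 to 6 in AKI against control and 0 to 4 in VHL-KO/AKI against AKI. They ranged from 1 to 2 in VHL-KO/AKI against VHL-KO, 0 to 0 in VHL-KO against control and 0 to 1 in the interaction. In VHL-KO/AKI against AKI the count was 1 with every row tested, 1 with only the compared groups fitted and 5 with array weights, and in the interaction it was 3 with array weights. No share of all genes called is given for these settings, so their counts cannot be set against the shares given above. The sex-linked covariate gave 0 in AKI against control, where Phlda3 turned to -0.148, and likewise 0 in VHL-KO/AKI against VHL-KO. The cause was not tested. Same-numbered arrays did not deviate together (r from -0.381 to 0.204 over 20 pairs, 3 above 0.1, own number best in 6 of 40 cases), and the replicate block gave 1 in VHL-KO/AKI against VHL-KO, where Perp had 0.397 (adjusted p = 0.0803). Leaving out AKI 4 and Control 3 together, chosen after seeing the data, gave 6 in AKI against control and 4 in VHL-KO/AKI against AKI. With the mean over its rows, Sfn passed in VHL-KO/AKI against VHL-KO (0.868, adjusted p = 0.0385). The interaction was not run on the compared groups alone, since it uses all 4.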

Other observations

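HIF targets, the genes that Vhl holds down in normal oxygen by marking HIF for destruction, rose with the deletion. Of 10 measured, 7 were called higher in VHL-KO/AKI against AKI (median 0.83) and 6 in VHL-KO against control (median 1.16). Over all genes, 2.48% were called higher in VHL-KO/AKI against AKI and 0.476% in VHL-KO against control. In AKI against control 2 were higher and 1 was lower, where 13.2% of all genes were called higher and 14.9% lower. The list mean spanned 9.78 to 10.02 in VHL-KO/AKI and 8.41 to 9.14 in AKI, and 9.65 to 10.16 in VHL-KO and 8.66 to 8.86 in controls, so the groups with and without the deletion did not overlap. Of 7 tubular injury genes, 6 rose in AKI against control (median 3.53) and 6 in VHL-KO/AKI against VHL-KO (median 2.75). Over all genes, 13.2% were called higher in AKI against control and 4.66% in VHL-KO/AKI against VHL-KO. Of the tubular injury genes, 0 passed in VHL-KO/AKI against AKI by limma (1 at an unadjusted p under 0.05, against 18.7% of all genes). Myc, a growth-promoting transcription factor, was called higher in VHL-KO against control (1.58, adjusted p = 0.00467) and lower in the interaction (-2.02, adjusted p = 0.0466).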
